A study of Rattus norvegicus with 6 samples.

Results

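Activity-induced immediate early genes were followed in hippocampal RNA of 6 male Wistar rats, of which 3 had been orchidectomized (both testes removed) and 3 sham-operated at 2 months of age. All were kept on 12 h of light and 12 h of dark. The hippocampus was taken 2 weeks after surgery under ketamine and medetomidine in both groups, and each RNA sample had its own 1-colour Agilent rat array. The list held 10 genes, Fos, Fosb, Junb, Egr1, Egr2, Arc, Npas4, Nr4a1, Ier2 and Dusp1, and their probes were found through the RefSeq accession that the array gives for each probe. Of the 10 genes, 9 had a probe, 1 each, among 30367 probes in all, and Fosb matched none. Of the 9 probes, 8 were well above background on all 6 arrays and Npas4 on 5 of 6, and none was saturated on any array. Every one of the 9 passed the brightness filter, which required 1 group or both to be well above background on each of its arrays.

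Immediate early genes are transcribed within minutes of a stimulus without the need for new protein, and in neurons synaptic activity and calcium entry switch them on. The signals reach their promoters through transcription factors such as CREB, which binds the cAMP response element (CRE), and SRF, which binds the CArG box. In the hippocampus they are widely used as markers of recently active neurons and are needed for lasting synaptic change. Most of the genes listed here encode transcription factors (Fos, Fosb, Junb, Egr1, Egr2, Npas4 and Nr4a1), whereas Arc acts at the synapse and Dusp1 shuts off the kinases that induce the others.

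The promoters are shown for 4 genes, Nr4a1, Egr2, Dusp1 and Ier2, each of which holds a CRE core. Each sequence is the stretch of 250 bases before the RefSeq transcription start (GRCr8 assembly), read 5′ to 3′ on the gene's strand, with CRE cores and CArG boxes in capitals. The windows are chr7:134259888-134260137 on the plus strand for Nr4a1, chr20:21054442-21054691 on the minus strand for Egr2, chr10:17184603-17184852 on the plus strand for Dusp1 and chr19:40399123-40399372 on the plus strand for Ier2. Those of Nr4a1 and Egr2 lie within the annotated span of the gene, whose other transcripts start upstream.
Nr4a1: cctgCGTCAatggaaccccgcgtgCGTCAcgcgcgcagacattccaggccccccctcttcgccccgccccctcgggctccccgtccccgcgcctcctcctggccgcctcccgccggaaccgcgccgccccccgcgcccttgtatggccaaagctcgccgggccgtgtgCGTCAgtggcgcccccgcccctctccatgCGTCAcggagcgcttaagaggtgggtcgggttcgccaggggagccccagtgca
Egr2: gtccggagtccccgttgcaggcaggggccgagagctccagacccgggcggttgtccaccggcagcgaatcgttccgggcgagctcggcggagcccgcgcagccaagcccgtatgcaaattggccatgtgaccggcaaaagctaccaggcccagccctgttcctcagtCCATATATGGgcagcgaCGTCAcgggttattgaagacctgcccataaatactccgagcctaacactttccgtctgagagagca
Dusp1: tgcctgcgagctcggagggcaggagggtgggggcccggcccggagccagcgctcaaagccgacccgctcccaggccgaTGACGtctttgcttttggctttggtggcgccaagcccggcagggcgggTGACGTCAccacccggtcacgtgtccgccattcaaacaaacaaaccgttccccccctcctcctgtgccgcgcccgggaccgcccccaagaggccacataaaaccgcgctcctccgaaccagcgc
Ier2: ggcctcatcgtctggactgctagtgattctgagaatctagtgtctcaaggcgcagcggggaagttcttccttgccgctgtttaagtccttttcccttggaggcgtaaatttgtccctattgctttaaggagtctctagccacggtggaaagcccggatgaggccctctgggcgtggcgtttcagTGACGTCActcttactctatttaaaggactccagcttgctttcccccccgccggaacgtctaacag

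RefSeq gave such a window for 8 of the 10 genes. The CRE core TGACG, searched on both strands and counted also inside the full CRE, lay in the windows of 6 of these 8 genes (Junb, Egr1, Egr2, Nr4a1, Ier2 and Dusp1) and in 19% of the 27457 promoters searched. Nr4a1 held 4 copies, all on the opposite strand. The full palindrome TGACGTCA lay in the windows of Ier2 and Dusp1 and in 1.7% of all promoters. The CArG box lay in those of Egr1 and Egr2 and in 1.5% of all promoters. The AP-1 site TGANTCA lay in none of the 8 windows and in 6.36% of all promoters. The EGR site GCGNGGGCG lay in the Nr4a1 window and in 4.53% of all promoters. The other rapid genes named in lists further below had 42 such windows. Of these, 57.1% held TGACG, 11.9% the full palindrome and 9.52% the CArG box. The EGR site lay in 28.6% of them and the AP-1 site in 0. Sites are matches of letters within these windows.

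The array labelled sham 2 stood apart from the rest, so group differences of the 9 genes are given with and without it. It correlated with the others at 0.803 to 0.813 across tested probes, while correlations among the other 5 ran from 0.987 to 0.996. The summed level of 11 probed markers of glutamatergic neurons (of 12 listed), as a multiple of the array's 75th percentile, was 0.624 on it and between 33 and 46.3 on the others, and 3 of the 11 were not well above background there. The summed levels of GABAergic neuron, astrocyte and oligodendrocyte markers were also low on it (8.90, 4.34 and 18.9, against at least 77.8, 89.3 and 68.2 on each other array). Those of choroid plexus, meningeal and ependymal markers were high (268, 53.4 and 27.8, against at most 37.8, 4.73 and 1.58). Not every marker followed its sum. In log2 relative to that percentile, meningeal Slc6a13 was lowest there (-4.02), and Lum (-4.58) lay below orchidectomized 3 (-3.71). Ependymal Tmem212 (-2.635) and choroid plexus Ttr (5.16) lay within the range of the other arrays. Every other marker of these lists was highest there, Col1a1 and Drc12 only slightly. GABAergic Reln was also highest there (2.71). Arrays differed in brightness: the 75th percentile of log2 processed signal was lowest on orchidectomized 3 (10.13) and highest on sham 3 (11.33), with the other 3 of the 5 arrays between 10.79 and 11.07. There were 4 slides and 2 scan days, and only slide 2 (orchidectomized 3 and sham 1) and scan day 1 (the 3 orchidectomized arrays and sham 1) held both groups. In these bulk samples fewer cells of a type and less RNA per cell cannot be told apart. Each level below is log2 of the intensity minus the array's own 75th percentile of log2 intensity, and levels of different probes cannot be set against each other.

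On the array labelled sham 2, 8 of the 9 genes had their lowest value, and Dusp1 did not. The median over the 9 genes was -3.004 log2 units (that of Nr4a1) relative to the median of the other 5 arrays, where the median over all tested genes was 0.00911. Arc, which encodes a capsid-like protein that removes AMPA receptors from the synapse, had -4.96 on it and between 1.59 and 3.37 on the others, a difference of -7.41 from their median that 1.17% of tested genes equalled or passed. Egr1 was lower by 29.3-fold there, Egr2 by 8.52-fold, Nr4a1 by 8.02-fold, Fos by 4.90-fold, Junb by 4.64-fold and Ier2 by 1.41-fold. Egr2 was dim there, at 18.6 intensity units. Its spots had an SD of 0.31 log2 units on that array and 0.03 to 0.07 on the others, so its fold is less certain. Npas4, a neuron-restricted transcription factor, did not rise well above background on it. The mean of the other 5 arrays was 6.04-fold above -7.518, the lowest level of any probe well above background on that array. This is only a rough bound, since Trib1 was not well above background there at -7.443. Dusp1 had -3.67 there, a difference of 0.01 from the median of the others. The 9 genes thus ranged from almost no difference for Dusp1 to more than 7 log2 units for Arc, and the size for Npas4 is known only as a rough bound. The part of cell makeup in these differences was not tested.

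**Figure D1:**
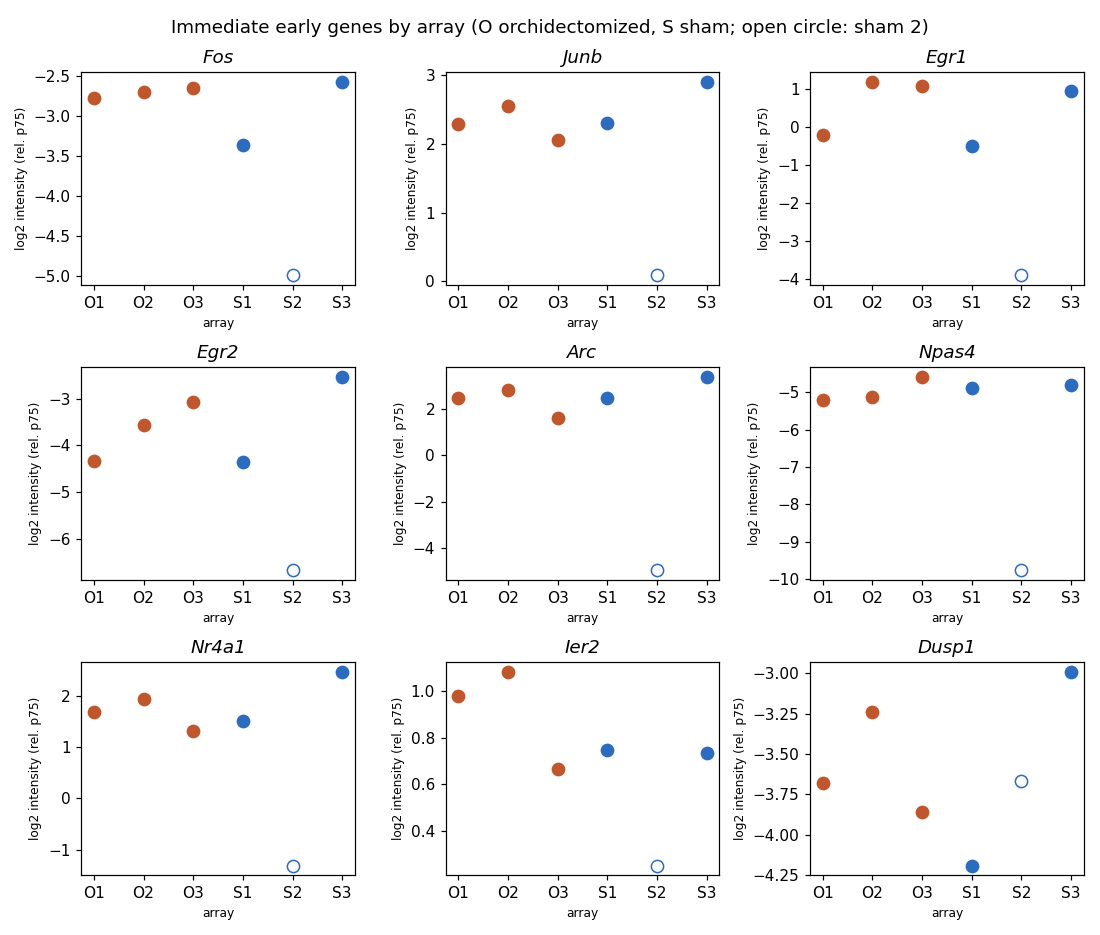
Log2 intensity relative to the array's 75th percentile (vertical axis, a scale of its own in each panel) for the 9 probed genes on each array, with orchidectomized arrays (O1 to O3) in orange and sham arrays (S1 to S3) in blue. The open circle is the array labelled sham 2, which was the lowest of the 6 for every gene except Dusp1.

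The comparison asked whether immediate early gene transcripts differ between orchidectomized and sham-operated males. In no member gene did the groups differ past the threshold, with or without the array labelled sham 2. Over 6 arrays limma called 0 of the 9 genes at a Benjamini-Hochberg adjusted p under 0.05, against a background of 0% of 24631 tested probes (0 called). At an unadjusted p under 0.05 it gave 0 of 9 genes and 0.731% of the probes (180). Without the array labelled sham 2 it again called 0 of 9 genes, against 0% of 25208 probes (0 called), and 0 of 9 genes against 2.71% of the probes (682) had an unadjusted p under 0.05. The values of the groups overlapped for all 9 genes in both comparisons, while they did not overlap at 8% of the probes over 6 arrays and at 16.3% without the array labelled sham 2.

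The sign of most of the group differences followed that 1 array. Over 6 arrays all 9 differences, orchidectomized minus sham, were above 0 with a median of 0.86, and the median over 12631 tested genes was -0.03. Without the array labelled sham 2, 6 of 9 were below 0 with a median of -0.12 (0.092 with normexp background correction), where the median over 12860 tested genes was also -0.03 and 56.5% of them were below 0. The differences of Junb, Egr2, Arc, Npas4 and Nr4a1 turned from above to below 0, and that of Dusp1 only from 0.02 to -0.0015. Those of Fos, Egr1 and Ier2 stayed above 0.

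**Figure D2:**
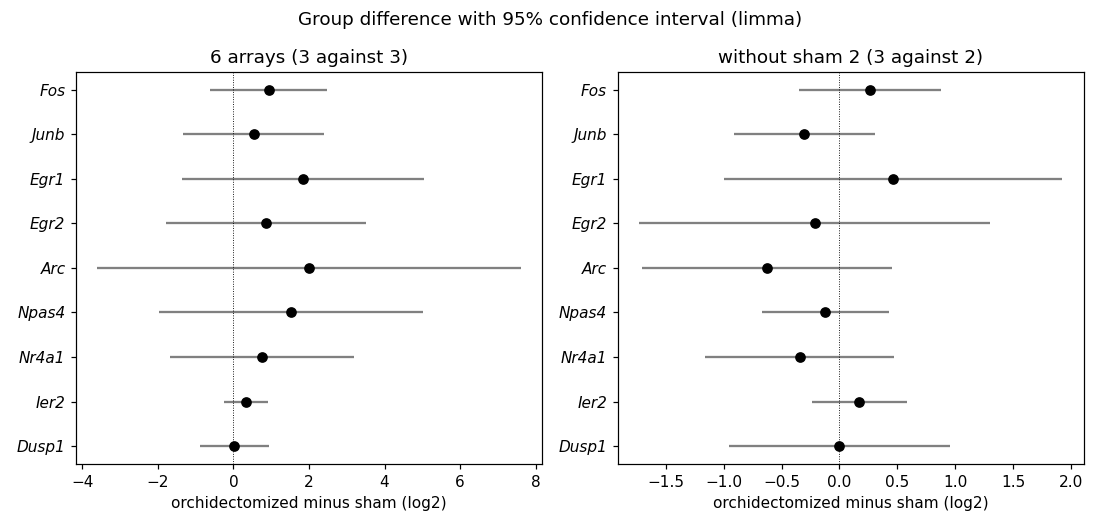
Difference between the group means, orchidectomized minus sham, in log2 units for the 9 genes (points) with the 95% confidence interval of limma (lines), over 6 arrays on the left and without the array labelled sham 2 on the right; the horizontal scales differ. Every interval in both panels includes 0, and those on the left are wider for every gene except Dusp1, with the interval of Arc running from -3.60 to 7.60.

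Among the AP-1 genes, Fos, whose protein pairs with Jun proteins to form AP-1, had -2.77, -2.69 and -2.64 on orchidectomized 1 to 3 and -3.36 and -2.56 on sham 1 and sham 3, with -4.99 on the array labelled sham 2. The 3 orchidectomized animals lay close together, between the values of sham 1 and sham 3. The means without the array labelled sham 2 were -2.70 ± 0.06 (SD, n = 3) and -2.96 ± 0.56 (SD, n = 2), a difference of 0.26 with a 95% confidence interval from -0.35 to 0.87 (limma adjusted p 0.988). With that array the difference was 0.94 (standard error 0.62; limma adjusted p 0.775). Junb, a Jun family partner of Fos, had 2.29, 2.56 and 2.06 in orchidectomized and 2.30 and 2.91 in sham 1 and sham 3, with 0.09 on the array labelled sham 2. Sham 3 was the highest of the 6 and sham 1 lay within the orchidectomized range. Its difference was -0.30 without the array labelled sham 2 (95% confidence interval -0.91 to 0.30; limma adjusted p 0.988) and 0.54 with it (limma adjusted p 0.787).

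The EGR genes encode zinc finger transcription factors of activated neurons. Egr1, long used as a marker of plasticity-inducing stimulation, had -0.20, 1.21 and 1.103 in orchidectomized 1 to 3, -0.49 and 0.97 in sham 1 and sham 3, and -3.91 on the array labelled sham 2. Each group held both low and high animals, and the range over the 5 arrays came to 3.24-fold. The difference without the array labelled sham 2 was 0.46 with an interval from -0.998 to 1.93 (limma adjusted p 0.988), and it was 1.85 with it (limma adjusted p 0.775). Egr2, which also directs myelination in the peripheral nerve, had -4.33, -3.57 and -3.07 in orchidectomized and -4.36 and -2.53 in sham 1 and sham 3, with -6.66 on the array labelled sham 2. The 2 sham animals thus lay at both ends of the 5 arrays, 3.54-fold apart. Its difference was -0.21 without the array labelled sham 2 (95% confidence interval -1.73 to 1.30; limma adjusted p 0.988) and 0.86 with it (limma adjusted p 0.776).

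Npas4, which is induced by calcium entry and shapes inhibitory synapses, gave a low signal of 46.8 to 92.0 intensity units on the 5 arrays. Its log2 values were -5.21, -5.13 and -4.58 in orchidectomized and -4.89 and -4.81 in sham 1 and sham 3. Both sham values lay within the orchidectomized range, and the difference without the array labelled sham 2 was -0.12 (95% confidence interval -0.67 to 0.42; limma adjusted p 0.988). With that array, whose value of -9.77 was not well above background, the difference of 1.52 has no exact size. Nr4a1, an orphan nuclear receptor also known as Nur77, had 1.69, 1.94 and 1.31 in orchidectomized and 1.52 and 2.47 in sham 1 and sham 3, with -1.31 on the array labelled sham 2. Its difference was -0.34 without the array labelled sham 2 (95% confidence interval -1.16 to 0.47; limma adjusted p 0.988) and 0.76 with it (limma adjusted p 0.778). Ier2, a nuclear protein of the early response, had 0.98, 1.08 and 0.67 in orchidectomized, 0.75 and 0.73 in sham 1 and sham 3, and 0.25 on the array labelled sham 2. It varied least of the 9, 1.33-fold over the 5 arrays, and its difference was 0.17 without the array labelled sham 2 (95% confidence interval -0.24 to 0.58; limma adjusted p 0.988) and 0.33 with it (limma adjusted p 0.775).

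Of the effectors, Arc had 2.45, 2.81 and 1.59 in orchidectomized and 2.45 and 3.37 in sham 1 and sham 3. Sham 3 was the highest and orchidectomized 3 the lowest, 3.43-fold apart. The difference without the array labelled sham 2 was -0.63 (a ratio of sham to orchidectomized of 1.54) with an interval from -1.71 to 0.46 (limma adjusted p 0.988). It was -1.09 against sham 3 alone and -0.16 against sham 1 alone. With that array the difference was 2.00 (standard error 2.25; limma adjusted p 0.775). Arc, Egr2, Nr4a1 and Ier2 were each spotted 10 times per array. The SD over the spots of Arc ran from 0.02 to 0.06 log2 units on the 5 arrays, which covers noise within an array and not labelling, hybridisation or scanning. Dusp1, the MAP kinase phosphatase MKP-1, had -3.68, -3.24 and -3.86 in orchidectomized, -4.19 and -2.99 in sham 1 and sham 3, and -3.67 on the array labelled sham 2. The sham animals 1 and 3 again lay at both ends, and the difference without the array labelled sham 2 was -0.0015 (95% confidence interval -0.96 to 0.95; limma adjusted p 0.999). With that array it was 0.02 (limma adjusted p 0.980).

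The spread between single arrays was wide for most of the genes. The SD over the 5 arrays had a median of 0.45 over the 9 genes and 0.18 over all tested genes. An SD as large as that of Egr1 was reached by 2.19% of tested genes, of Egr2 by 2.20%, of Arc by 3.76%, of Dusp1 by 7.99% and of Nr4a1 by 9.68%. For Junb, Fos and Npas4 the shares were 20.0%, 20.8% and 31.0%, and for Ier2 52.1%. This SD pools both groups and the slides and scan days of sham 1 and sham 3. Within the 3 orchidectomized arrays the shares were 1.93% for Egr1, 3.58% for Egr2 and 3.73% for Arc, but 22.5% for Dusp1, 22.9% for Nr4a1 and 88.1% for Fos. Junb, Npas4 and Ier2 had 33.4%, 19.2% and 41.2% there. Sham 1 and sham 3 were the extremes of the 5 arrays for Fos, Egr2 and Dusp1, while another pair was farther apart for the other 6 genes. Of 9 genes, 8 were higher in sham 3 than in sham 1, where 43.8% of all tested genes were, and the exception was Ier2, at -0.01. The median of sham 3 minus sham 1 was 0.93 over the 9 genes and -0.04 over all tested genes. Egr2 differed most, at 1.82 (3.54-fold), then Egr1 at 1.45 (2.73-fold), Dusp1 at 1.20, Nr4a1 at 0.95, Arc at 0.93, Fos at 0.80, Junb at 0.61 and Npas4 at 0.09. These are differences between single animals with no replicate check, on arrays that also differed in slide, scan day and brightness.

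**Figure D3:**
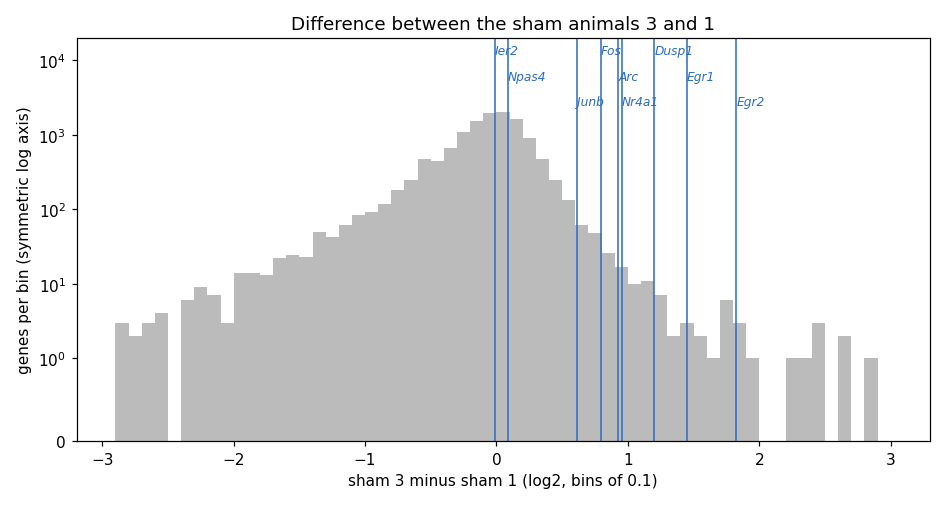
Histogram of sham 3 minus sham 1 in log2 units over all tested genes (grey bars, genes per bin of 0.1 on a symmetric log axis; differences beyond 3 are not drawn), with the 9 immediate early genes as blue lines. Except for Ier2 and Npas4, the genes lie at 0.61 or above, on the right flank of the distribution.

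The group difference depended on which sham array was used. Against sham 1 alone, which shares scan day 1 with all 3 orchidectomized arrays, the median difference over the 9 genes was 0.16, with 2 of 9 below 0. Against sham 3 alone it was -0.60, with 8 of 9 below 0. On slide 2, orchidectomized 3 minus sham 1 had a median of 0.31, with 4 of 9 below 0. For Egr2 the difference was 0.70 against sham 1 and -1.13 against sham 3, and for Dusp1 it was 0.60 and -0.60. The corresponding medians over all tested genes were -0.04, -0.01 and -0.04, and 57.6%, 51.2% and 53.6% of these genes were below 0. For each gene, the contrast between sham 1 and sham 3 here restates their difference given above.

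The genes did not move as 1 block across animals. Sham 3 was the highest of the 5 arrays for 6 genes (Fos, Junb, Egr2, Arc, Nr4a1 and Dusp1), and for 19.3% of all tested genes. Orchidectomized 3 was the lowest for 4 (Junb, Arc, Nr4a1 and Ier2) and sham 1 for 4 (Fos, Egr1, Egr2 and Dusp1), against 33% and 13.8% of all tested genes. Relative to orchidectomized 1, the orchidectomized 3 animal was higher for Egr1 by 1.30, Egr2 by 1.26, Npas4 by 0.63 and Fos by 0.13. It was lower for Arc, at -0.86, Nr4a1, at -0.38, Ier2, at -0.31, Junb, at -0.24, and Dusp1, at -0.18. Orchidectomized 2 was above orchidectomized 1 for all 9 genes, from 0.07 for Fos to 1.41 for Egr1.

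**Figure D4:**
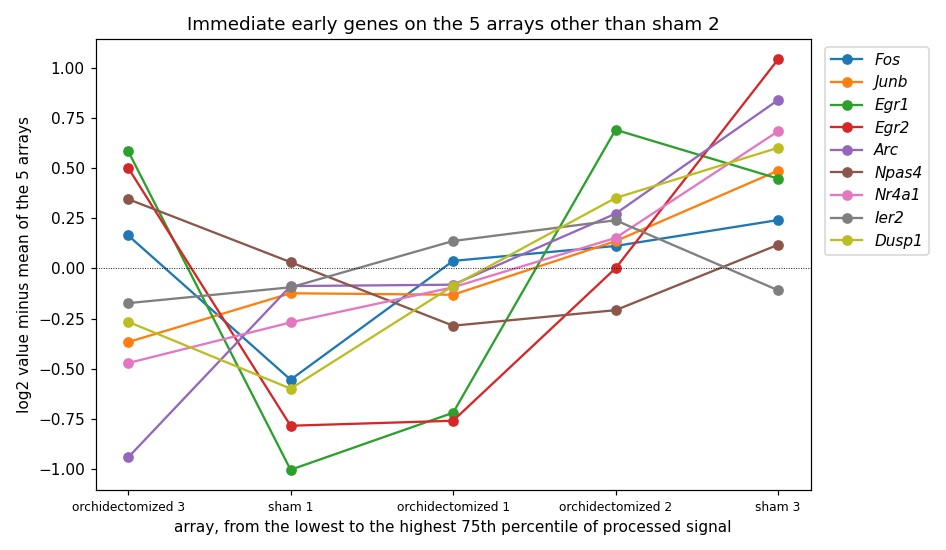
Log2 value of each of the 9 genes minus its own mean over the 5 arrays other than that labelled sham 2, with the arrays ordered from the lowest to the highest 75th percentile of processed signal. Junb, Arc and Nr4a1 follow that order of brightness when sham 1 and orchidectomized 1, which were nearly equal in brightness, are taken in either order, while Egr1, Egr2, Fos and Npas4 are above their mean on the dimmest array, orchidectomized 3.

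For Junb, Arc and Nr4a1 the scaled values followed array brightness, with orchidectomized 3 lowest, then sham 1 and orchidectomized 1 in either order (10.79 and 10.80 in brightness), then orchidectomized 2 and sham 3. Junb was slightly higher on sham 1 than on orchidectomized 1. Such an order, with the middle pair free, was found for 4.23% of all tested genes, and these 3 genes kept it with quantile normalization (5.68% of genes) and with normexp background correction (2.66% of genes). The summed level of the glutamatergic neuron markers was also lowest on orchidectomized 3 (33) and highest on sham 3 (46.3) among the 5 arrays, with 40.7 to 44.6 on the rest. The summed level of the GABAergic neuron markers ran the other way, highest on orchidectomized 3 (109) and lowest on sham 3 (77.8). So did that of the astrocyte markers (130 and 89.3). For the GABAergic markers the mean log2 level had another order on the 5 arrays. It was highest on orchidectomized 3 (2.54), next on sham 3 (2.41) and lowest on orchidectomized 1 (2.21). The choroid plexus markers summed to between 20.9 and 37.8 on the orchidectomized arrays and to 11.9 and 8.25 on sham 1 and sham 3. Most of that sum was Ttr, the transthyretin gene, at 5.20, 4.87 and 4.36 in orchidectomized and 3.47 and 2.99 in sham 1 and sham 3. The mean log2 level of the 10 markers overlapped between the groups, at -3.04, -3.43 and -4.14 against -3.81 and -4.66. Taken singly, all 10 had differences above 0 without the array labelled sham 2. The groups did not overlap for 4 of the 10, against 16.3% of all probes, and limma called 0 of them. Other lists also leaned to 1 side in that comparison. All 11 glutamatergic neuron markers were below 0 (median -0.158), with no overlap for 2 of them. Of 8 oligodendrocyte markers, 7 were below 0 (median -0.25), with no overlap for 5. All 5 ependymal markers were below 0, while 6 of 8 astrocyte and 6 of 8 microglial markers were above. The GABAergic markers were split, 4 above and 5 below 0. Limma called 0 of these as well. The part of brightness and of cell makeup in the levels of the immediate early genes was not tested.

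Other genes of the same response were drawn from lists of rapid genes, delayed genes and upstream regulators, and limma called 0 in any of them in either comparison. The list of other AP-1 genes had 7 tested genes, 4 above and 3 below 0 without the array labelled sham 2, with a median of 0.01. Batf, an AP-1 partner best known from lymphocytes, had -0.69 (standard error 0.19, limma unadjusted p 0.0128, adjusted p 0.988). Its signal was low, with levels from -7.15 to -6.07 on the 5 arrays. Jun had 0.28 and Jdp2 -0.13. Of EGR genes and their NAB corepressors, 1 of 4 was above 0 (Nab1, at 0.89), and Egr3 and Nab2 had -0.39 and -0.31. The other NR4A receptors Nr4a2 and Nr4a3 had 0.20 and 0.41. The 19 further rapid transcription regulators had a median of -0.06 (8 above and 11 below 0), with Csrnp1, Zfp36 and Cebpb at -0.35, -0.32 and -0.30. The 19 rapid signalling genes had a median of -0.07 (5 above, 14 below), with Pim1, Trib1 and Arl4d at -0.66, -0.61 and -0.52. Over 6 arrays the medians were 0.24 for other AP-1 genes, 0.50 for EGR and NAB genes, 1.89 for the NR4A pair, -0.01 for rapid transcription regulators and 0.27 for rapid signalling genes. The named genes' differences above are those without the array labelled sham 2.

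Delayed activity genes, which encode neuropeptides, growth factors and synaptic proteins induced later, numbered 23 with a median of 0.05 (13 above and 10 below 0) without the array labelled sham 2. Among them the neuropeptide gene Tac1 had 0.45, the prohormone convertase gene Pcsk1 -0.45 and Bmp3 0.31. Bdnf, the neurotrophin gene most closely tied to CREB, lay between -1.58 and -1.41 on all 5 arrays, and was picked after its values were seen. It was not well above background on the array labelled sham 2. Over 6 arrays the median of the delayed genes was 1.39. The 30 upstream regulators had a median of -0.04 (11 above and 19 below 0) and of 0.28 over 6 arrays. The NMDA receptor gene Grin1, the ERK1 gene Mapk3 and the kinase gene Camk4 had -0.60, 0.34 and -0.34. Sham 3 was above sham 1 for 15 of 19 rapid transcription regulators, 10 of 19 rapid signalling genes, 14 of 23 delayed genes and 19 of 30 upstream regulators, with medians of 0.14, 0.05, 0.05 and 0.09. It was above for 3 of 7 other AP-1 genes (median -0.14), 3 of 4 EGR and NAB genes (0.38) and 2 of 2 NR4A genes (0.53). How these lists differ from the 9 genes was not tested. On the array labelled sham 2 the delayed genes had a median of -4.02 relative to the others, the NR4A pair -4.93, the rapid signalling genes -1.40, the EGR and NAB genes -1.37, the other AP-1 genes -0.69, the upstream regulators -0.65 and the rapid transcription regulators -0.20.

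Genes most like the mean centred profile of the 9 were sought over the 5 arrays by the root mean square difference. The 6 nearest of 2287 genes with at least the same SD were Rtn4ip1, Arid3b, Sidt1, Vom1r8, Pcdhgb7 and Meox2, at 0.0976 to 0.145 log2 units, where the median gene lay at 0.599. For Fos alone the nearest 3 of 2662 were Gria4, Dnmt3l and Il17a, at 0.0774 to 0.113. None of these 9 genes was in the lists of the activity response used here. The nearest of so many genes over 5 arrays lie close by selection, and their signal levels were not examined. The mean profile also averages members that did not move as 1 block.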

How the data were processed

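Hippocampal RNA of 6 male rats (200 ng each, Cy3) was hybridised singly. Groups and replicate numbers come from the labels, where the 3 samples of a group are biological replicates. Per the file headers, the authors' arrays were read with Feature Extraction 10.5.1.1, and gProcessedSignal is a background-subtracted intensity. Outlier, saturation and background flags and ControlType are other columns of the deposited files. The authors' deposited table holds log2 values equal to log2 processed signal plus 1 constant per array (-0.32 to 0.72); its centring stays unknown. Its column medians were 8.02, 7.94 and 7.91 (orchidectomized 1 to 3) and 7.77, 7.62 and 8.05 (sham 1 to 3).

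Of 44254 spots, 1377 controls and outlier-flagged spots were left out. Log2 values were averaged per probe and each array's 75th percentile subtracted. Accessions, matched without versions to the GRCr8 RefSeq table, named 18004 of 30367 probes. The array design names build rn4, so promoter coordinates apply to GRCr8 alone. Probes well above background (at least 50% of spots) on all arrays of at least 1 group, with a value on each array, entered a two-sided test with limma 3.58.1 (lmFit, eBayes) under R 4.3.3. P-values were adjusted by Benjamini-Hochberg over all tested probes. The fit was also run on simulated data, which held no outlying array and no slide or scan day effects. That run checked only the average estimated difference. Where a gene had several probes, the brightest was used. No array was left out or imputed in a fit except where stated.

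Named genes were the 9 probed members and the nearest genes by profile. The 3 per list with the largest difference without the array labelled sham 2 were also named. Bdnf and the single cell type markers named, Ttr among them, were added after their values were seen. The members and lists were chosen with earlier results of these data known. In the main fits the animals were treated as unpaired. Deviations of same-numbered arrays from their group means correlated at 0.03, -0.02 and -0.02. The array labelled sham 2 stood far apart and enters each sham deviation. The check therefore cannot tell whether replicate numbers pair the animals. Normexp used median spot signals, the spot signal the files hold. The number of arrays limits the precision.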

Additional observations from a re-analysis of the deposited data

How the results depend on the processing

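Under every alternative run, 0 of the 9 genes was called in either comparison (8 tested over 6 arrays when a probe had to be bright on every array). Over 6 arrays 72 of 81 gene differences kept their sign under settings other than leaving out an array, and 67 of 81 did without the array labelled sham 2. Most settings behind the first count keep the array labelled sham 2 at full weight. That count therefore cannot show whether the signs hold apart from it. The median of 0.86 over 6 arrays came to 0.19 with array weights, 0.31 when blocked by slide and 0.16 when blocked by scan day, and Arc and Junb came to 0.024 and 0.025 with array weights. With normexp over 6 arrays Egr2 fell from 0.86 to 0.39 and Npas4 from 1.52 to 0.47. Over 6 arrays Dusp1 turned to -0.047 with quantile normalization and -0.061 with median scaling, and Npas4 to -0.24 when arrays were weighted. With slide as a block Junb, Arc, Nr4a1 and Ier2 turned to -0.24, -0.85, -0.20 and -0.079, and with scan day Arc and Npas4 to -0.16 and -0.080; both blocks rest on sham 1 alone. Without the array labelled sham 2, Dusp1 turned to 0.16 (normexp), 0.041 (quantile), 0.0014 (median), 0.052 (deposited values), 0.082 (array weights), 0.33 (slide) and 0.60 (scan day). Npas4 turned to 0.092 with normexp and 0.31 with slide, Ier2 to -0.079 with slide, and Egr2 to 1.29 with slide and 0.70 with scan day. Junb and Nr4a1 turned to 0.0029 and 0.13 with scan day. The median member difference there moved to 0.31 with slide as a block. The median of all probes was -0.10 under median scaling over 6 arrays, and changes there are relative to it. The cause of these turns was not tested. With the replicate number as a block the median member difference was 0.86 over 6 arrays. It was -0.18 without the array labelled sham 2, and the block changed no call.

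Leaving out 1 array, the median member difference ran from -0.12 (without sham 2) to 1.55 (without sham 3) over 6 arrays. Without the array labelled sham 2 it ran from -0.60 (without sham 1) to 0.16 (without sham 3). The remaining sham array then takes its spread from the orchidectomized arrays, that is, it is assumed to vary as they do. Over 6 arrays the lowest and highest were -0.63 and 3.54 for Arc, -0.26 and 0.34 for Dusp1, -0.21 and 1.85 for Egr2, -0.30 and 1.11 for Junb, -0.12 and 2.36 for Npas4, and -0.34 and 1.55 for Nr4a1. Without the array labelled sham 2 they were -1.09 and -0.16 for Arc, -0.60 and 0.60 for Dusp1, -0.26 and 1.19 for Egr1, -1.13 and 0.70 for Egr2, -0.14 and 0.66 for Fos, -0.61 and 0.0029 for Junb, and -0.82 and 0.13 for Nr4a1. Over all probes the count was 1 (quantile) and 13 (array weights) in the comparison of all 6. Without the array labelled sham 2 it was 2 (quantile), 1 (median), 18 (deposited values) and 10 (scan day), and 0 to 251 with 1 more array left out (251 without sham 3, 22 without sham 1). A mean over a gene's probes was not run, since each gene had 1 probe.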
